A study of Homo sapiens with 12 samples.

Results

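The metallothioneins and the genes of the cellular zinc response were followed in MiaPaca2, an established human pancreatic ductal adenocarcinoma (PDAC) cell line, across a Vitamin D treatment given with or without epigenetic priming. The set holds 10 genes chosen by name out of 63677 Ensembl identifiers counted in each library: the metallothioneins MT1A, MT1E, MT1F, MT1G, MT1M, MT1X, MT2A and MT3, the zinc sensor MTF1 and the zinc exporter SLC30A1. RNA-seq was performed on 12 libraries in 4 groups of 3, taken after 24 h. Con cells received the DMSO vehicle. CPT cells received 1 µM calcipotriol, a Vitamin D analogue that binds the Vitamin D receptor. GTA+5-Aza cells were primed with 2 mM glyceryl triacetate, which releases acetate inside cells, together with 1 µM 5-Aza-2′-deoxycytidine, an inhibitor of DNA methyltransferases. CPT+GTA+5-Aza cells received all 3 agents. GTA and 5-Aza were always given together in these libraries, so their separate contributions cannot be told apart. The groups model 1 cell line at 1 dose and 1 time, and beyond the replicate number the labels do not say whether the 3 libraries of a group came from separate cultures, so the tests measure the spread between these libraries.

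Metallothioneins are small, cysteine-rich cytoplasmic proteins that bind zinc, copper and cadmium and buffer the free metal in the cell. When zinc rises, the zinc-finger factor MTF1 binds metal response elements upstream of the metallothionein genes and of SLC30A1, which moves zinc out of the cytosol across the plasma membrane. MT1 and MT2 genes are also induced by glucocorticoids and oxidative stress, and silencing of single MT1 genes by promoter methylation is known in several carcinomas. MT3 is best known from brain. The 8 metallothionein genes lie in 1 cluster on chromosome 16 (GRCh38, GENCODE release 44). From MT3 at chr16:56589074-56591088 they run through MT2A at chr16:56608584-56609497, MT1E at chr16:56625475-56627112, MT1M at chr16:56632659-56633981, MT1A at chr16:56638666-56640087, MT1F at chr16:56657731-56660698 and MT1G at chr16:56666730-56668065 to MT1X at chr16:56682470-56684196. MT1G is the member of the cluster read from the minus strand. MTF1 and SLC30A1 are both on the minus strand of chromosome 1, at chr1:37809574-37859592 and chr1:211571568-211579161.

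The upstream sequences are shown because metal response elements are where MTF1 acts on its targets. RefSeq windows of 250 bases ending just before the annotated start (GRCh38.p14) were at hand for 4 of the 10 members, and MT1A, MT1E, MT1F, MT1G, MT1M and MT3 have no entry. Capitals mark matches to the metal response element cores TGCACNC and TGCGCNC, which read GNGTGCA and GNGCGCA when they lie on the other strand. The windows, in the direction of transcription, are chr16:56608334-56608583 (plus strand) for MT2A, chr16:56682220-56682469 (plus) for MT1X, chr1:211579162-211579411 (minus) for SLC30A1 and chr1:37859593-37859842 (minus) for MTF1.
MT2A: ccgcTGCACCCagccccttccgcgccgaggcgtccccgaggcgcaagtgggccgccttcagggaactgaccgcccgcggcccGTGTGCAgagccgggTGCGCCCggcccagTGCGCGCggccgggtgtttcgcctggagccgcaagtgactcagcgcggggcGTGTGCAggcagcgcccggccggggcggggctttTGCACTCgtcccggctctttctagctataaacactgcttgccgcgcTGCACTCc
MT1X: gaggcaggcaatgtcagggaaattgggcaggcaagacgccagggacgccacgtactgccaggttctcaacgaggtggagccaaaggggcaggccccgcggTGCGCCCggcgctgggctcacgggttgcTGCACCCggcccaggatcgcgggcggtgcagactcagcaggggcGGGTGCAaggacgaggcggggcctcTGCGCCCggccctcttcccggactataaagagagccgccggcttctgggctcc
SLC30A1: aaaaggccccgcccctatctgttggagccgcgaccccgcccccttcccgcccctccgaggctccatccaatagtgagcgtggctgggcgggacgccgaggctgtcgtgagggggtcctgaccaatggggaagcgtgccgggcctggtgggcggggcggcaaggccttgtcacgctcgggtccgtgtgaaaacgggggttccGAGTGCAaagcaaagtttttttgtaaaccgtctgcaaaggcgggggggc
MTF1: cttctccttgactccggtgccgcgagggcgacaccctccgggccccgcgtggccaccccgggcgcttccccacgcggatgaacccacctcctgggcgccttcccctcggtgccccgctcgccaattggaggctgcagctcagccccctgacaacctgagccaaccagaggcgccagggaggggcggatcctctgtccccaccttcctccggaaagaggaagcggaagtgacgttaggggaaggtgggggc
The MT2A window held 7 cores and the MT1X window 4, with no overlap between matches. As many as 7 cores were found in 0.0313% and as many as 4 in 0.37% of the 35116 RefSeq promoter windows of the same length. The single core of SLC30A1 lies 49 to 43 bases before the start (positions -49 to -43), and 24.8% of windows held at least 1 core. No core was found in the MTF1 window. TATAAA was found in the last 50 bases of the MT2A and MT1X windows and in 2.63% of windows. The MT2A window held 32 CpG dinucleotides, MT1X and SLC30A1 22 each and MTF1 20, beside a median of 11 over the windows. A match is a description of letters and says nothing of binding in these cells.

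Library totals ran from 16162490 to 21224665 counts. Values are given as CPM, the usual depth-normalised read count, computed on library sizes after TMM scaling, a factor that ran from 0.981 to 0.990 in Con and CPT libraries and from 1.012 to 1.019 in primed libraries. The keratins KRT8 (mean 1611 CPM) and KRT18 (781 CPM) and the mesenchymal VIM (5887 CPM) were high. The keratins KRT19 and KRT7 averaged 34.2 and 1.28 CPM. The epithelial genes EPCAM and CDH1 stayed at or under 0.245 CPM in each of the 12 libraries. Of 10 markers of blood, stromal, endothelial, liver and other pancreatic cells, COL3A1 (84.8 to 125 CPM) was the one that passed the filter on low counts, and LUM, PECAM1, HBB, ALB, INS and PRSS1 had 0 counts in the 12 libraries. With priming alone COL3A1 rose by 0.34 on the log2 scale. Of 5 cell line markers tested, KRT7 rose by 2.34, KRT19 rose by 0.27 and VIM fell by 0.19. The rise of KRT7 rests on 4, 15 and 5 counts in Con and 39, 24 and 49 counts in GTA+5-Aza. With priming in the presence of CPT, KRT18 rose by 0.18, KRT19 rose by 0.28 and VIM fell by 0.18. Of all genes tested, 17.5% were called without CPT and 17.0% in its presence. The KRT19 calls were lost in 12 and 14 and the KRT18 call in 9 of 19 alternatives. The part of these genes in the results below was not tested.

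Among the metallothioneins, MT2A and MT1E supplied most of the transcripts. MT2A, the main metallothionein of most human cells, averaged 796 ± 80.4 CPM (SD, n = 12) and MT1E 591 ± 57.8 CPM. They made up 54.3% and 40.3% of the summed CPM of the 8 metallothioneins. MT1A followed at 37.2 ± 4.06 CPM, MT1X at 27.8 ± 5.03 CPM and MT1M at 13.9 ± 1.49 CPM. MT1G averaged 0.720 CPM and MT1F 0.0923 CPM, and MT3 had 0 counts in 12 of 12 libraries. A count of 0 allows up to 3 counts, which is 0.143 to 0.184 CPM in these libraries and covers counting error only.

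Divided by the length of each gene's MANE Select transcript, the level of MT2A was 1986 CPM per kb and that of MT1E 793. That transcript has 746 bases for MT1E and 401 for MT2A, so the distance between these levels depends on the length used. MT1A reached 93.8, MT1X 68.7 and MT1M 35.0 CPM per kb. SLC30A1 was at 21.1 CPM per kb, MTF1 at 5.48, MT1G at 1.76 and MT1F at 0.217 CPM per kb. Divided by the length of all annotated exons instead, MT1X came to 16.1 CPM per kb and moved below MT1M (27.2) and SLC30A1 (21.1), so the order among these 3 genes depends on the length used. MT2A (871) and MT1E (562) led on that scale too.

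**Figure D1:**
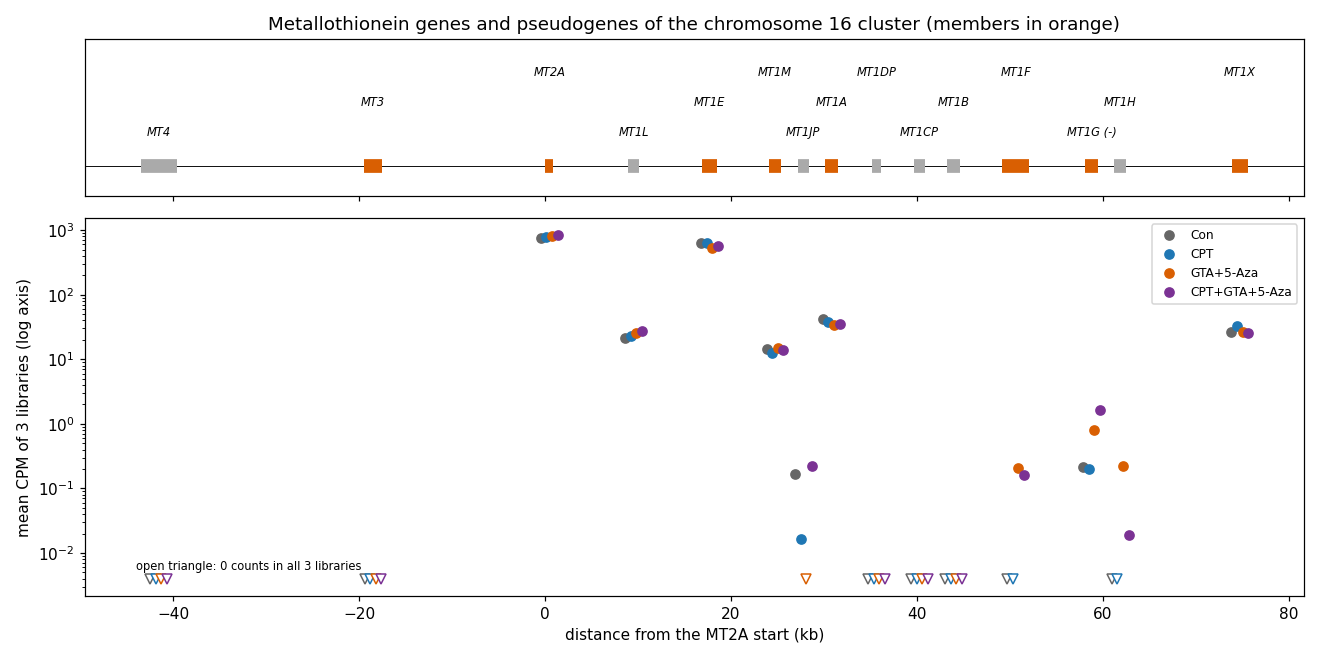
The metallothionein cluster drawn by distance from the MT2A start in kb (upper panel, members in orange, other metallothionein genes and pseudogenes in grey), and the mean CPM of the 3 libraries of each group on a log axis (lower panel, open triangles for genes with 0 counts in all 3 libraries). MT2A and MT1E stand above the rest in the 4 groups, and MT1G and MT1F, to the right, have their higher values in the primed groups.

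The proteins are close relatives. Each of the 8 coding sequences compared held 20 cysteine codons, in 61 residues, or 68 for MT3. The MT1 and MT2A coding sequences shared 88.7% to 95.2% of their bases with one another and 74.2% to 77.9% with MT3. Reads could therefore be split or lost between members during counting. Of windows of 50 transcript bases, 16.4% in MT1G, 18.2% in MT1M, 18.7% in MT1X, 7.1% in MT1E, 5.8% in MT1A and 4.5% in MT2A occurred in another gene's transcripts as well. With windows of 100 bases the share was 0.0% for the metallothionein members except MT1X, where 11.6% lay in ENSG00000259827, an overlapping gene on the same strand listed with 0 counts in the 12 libraries. In CPT replicates 2 and 3, MT1G had 0 counts beside 14861 and 13290 counts of MT2A. The processed pseudogene MT2P1 carried counts equal to 0.467% to 0.861% of those of MT2A.

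To ask what epigenetic priming did on its own, GTA+5-Aza was compared with Con. MT1E fell by 0.23 on the log2 scale (SE 0.07, adjusted p = 0.0278 after Benjamini-Hochberg adjustment, edgeR's quasi-likelihood test), and it was the one member called of 8 that could be tested. In the same comparison 17.5% of the 17123 genes tested were called at an adjusted p under 0.05, 9.95% as higher and 7.53% as lower. MT1E stood at 604, 607 and 676 CPM in Con replicates 1 to 3 and at 577, 457 and 577 CPM in GTA+5-Aza. The highest primed library lay below the lowest Con library, a separation seen in 34.1% of genes tested. In bulk RNA a lower level in each cell and a loss in part of the cells cannot be told apart. The call rested on single libraries: without GTA+5-Aza replicate 2 the log2 fold change was -0.13 (adjusted p = 0.218) and without Con replicate 3 it was -0.18 (adjusted p = 0.158).

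MT1A showed values of the same direction as MT1E that missed the threshold. Its levels were 43.3, 42.1 and 40.1 CPM in Con and 33.2, 34.5 and 35.5 CPM in GTA+5-Aza, again without overlap. The log2 fold change was -0.28 (SE 0.10, adjusted p = 0.0582 by edgeR's quasi-likelihood test). DESeq2 placed it on the other side of the threshold, with an adjusted p of 0.0425.

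MT1G, a low-expressed member, had 4, 5 and 4 counts in Con and 8, 22 and 16 counts in GTA+5-Aza, or 0.210, 0.238 and 0.195 CPM against 0.427, 1.10 and 0.903 CPM. The groups did not overlap. The log2 fold change was 1.89 (95% interval 0.22 to 3.56), with an adjusted p of 0.116 by edgeR. A second rule, modelled on the study's threshold for DEGs, asked for an unadjusted P under 0.05 together with a fitted fold above 1.5. MT1G was the one member past that rule, which 8.44% of genes tested passed. It was kept by the filter on low counts through the primed groups, CPT+GTA+5-Aza among them. The filter's level of 0.531 CPM was reached in 5 primed libraries and 1 unprimed library. Each Con library and GTA+5-Aza replicate 1 lay below that level. This test was therefore made on a gene kept through groups in which it is high.

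The abundant MT2A, MT1X, MT1M, MTF1 and SLC30A1 were not called. MT2A was at 693, 742 and 865 CPM in Con and at 807, 727 and 856 CPM in GTA+5-Aza, so that the groups overlapped, with a log2 fold change of 0.06 (95% interval -0.12 to 0.23). MT1X (-0.04, interval -0.33 to 0.24) and MT1M (0.03, interval -0.25 to 0.31) also gave intervals on both sides of 0. For MTF1 the log2 fold change was -0.03 (interval -0.22 to 0.16) and for SLC30A1 0.05 (interval -0.09 to 0.18). These intervals bound a change of SLC30A1 to between 0.941 and 1.14 times the Con level. SLC30A1 ran from 117.5 to 123.5 CPM in Con and from 123.6 to 126.0 CPM in GTA+5-Aza. These groups did not overlap either, as in 34.1% of genes tested.

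**Figure D2:**
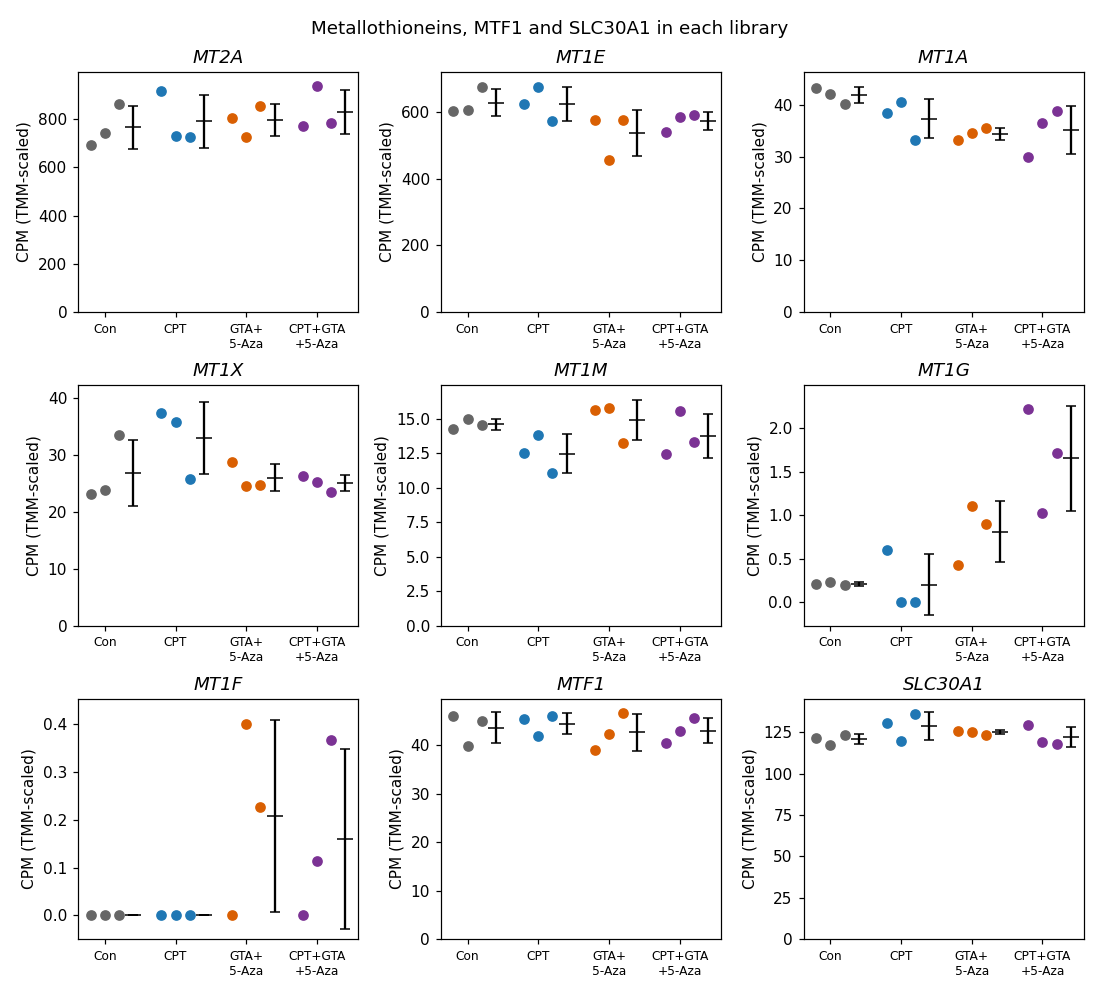
CPM of 9 members in each of the 12 libraries, 1 panel per gene, with points for replicates 1 to 3 from left to right and a black bar for the mean ± SD of the 3. MT1G lies highest in the CPT+GTA+5-Aza group, MT1E and MT1A are lower in GTA+5-Aza than in Con, and MT2A, MTF1 and SLC30A1 overlap between most groups. MT3, with 0 counts throughout, is not drawn.

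To ask what priming did in cells that also received Vitamin D, CPT+GTA+5-Aza was compared with CPT. Of the 8 members tested, MT1G rose and MT1X fell, beside 17.0% of all genes tested that were called in this comparison, 9.57% as higher and 7.39% as lower. MT1G had 11, 0 and 0 counts in CPT and 42, 18 and 28 counts in CPT+GTA+5-Aza, or 0.605, 0 and 0 CPM against 2.22, 1.02 and 1.71 CPM. Its highest CPT library lay below its lowest CPT+GTA+5-Aza library, a separation seen in 30.8% of genes tested. MT1G was again the one member past the second rule, which 8.67% of genes tested passed. The log2 fold change was 3.03 (SE 0.81, 95% interval 1.36 to 4.70, adjusted p = 0.0101 by edgeR's quasi-likelihood test). MT1G passed the filter on low counts through the primed groups, where it is high: 5 of 6 primed and 1 of 6 unprimed libraries reached the level set by a minimum of 10 counts, so the test was made on a gene kept through the groups in which it is high. Summed over 3 libraries, that change rests on 88 counts against 11, and without CPT+GTA+5-Aza replicate 1 the log2 fold change of 2.75 had an adjusted p of 0.0581. Without CPT replicate 1 the CPT group was left at 0 counts, where a fitted fold change is not bounded.

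MT1X, whose upstream window with 4 metal response element cores is printed above, was at 37.5, 35.9 and 25.8 CPM in CPT and at 26.4, 25.3 and 23.6 CPM in CPT+GTA+5-Aza. The highest primed library was above the lowest CPT library, so the groups overlapped. MT1X fell by 0.40 on the log2 scale (SE 0.14, adjusted p = 0.0491 by edgeR's quasi-likelihood test), just inside the threshold. The adjusted p was 0.0821 with scaling by library size alone, 0.0929 without CPT replicate 2 and 0.226 without CPT replicate 1, where the log2 fold change was -0.30.

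MT1E, called in the absence of CPT, gave -0.12 here (95% interval -0.27 to 0.03). Its levels were 624, 675 and 575 CPM in CPT and 542, 587 and 593 CPM in CPT+GTA+5-Aza. MT1A gave -0.09 (interval -0.31 to 0.12) and MT1M 0.14 (interval -0.14 to 0.42). MT2A was at 918, 731 and 725 CPM in CPT and at 772, 936 and 786 CPM in CPT+GTA+5-Aza, a log2 fold change of 0.07 (interval -0.10 to 0.24). MTF1 gave -0.05 (interval -0.24 to 0.14) and SLC30A1 -0.08 (interval -0.21 to 0.06). Over the 8 members tested the median log2 fold change was -0.06, beside 0.0055 over all genes tested. Without CPT the corresponding medians were -0.000635 and 0.0069.

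The change with priming was then compared between cells with and without CPT by an interaction term. No member was called, nor was any of the 17123 genes (0.0%). The interaction was -0.35 for MT1X (95% interval -0.76 to 0.05), 1.14 for MT1G (interval -1.29 to 3.58), 0.11 for MT1E (interval -0.10 to 0.32) and 0.19 for MT1A (interval -0.11 to 0.49). A call in one comparison and none in the other is therefore not a shown difference for MT1E, MT1X or MT1G. The interaction term of MT2A was 0.02 (interval -0.23 to 0.26).

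**Figure D3:**
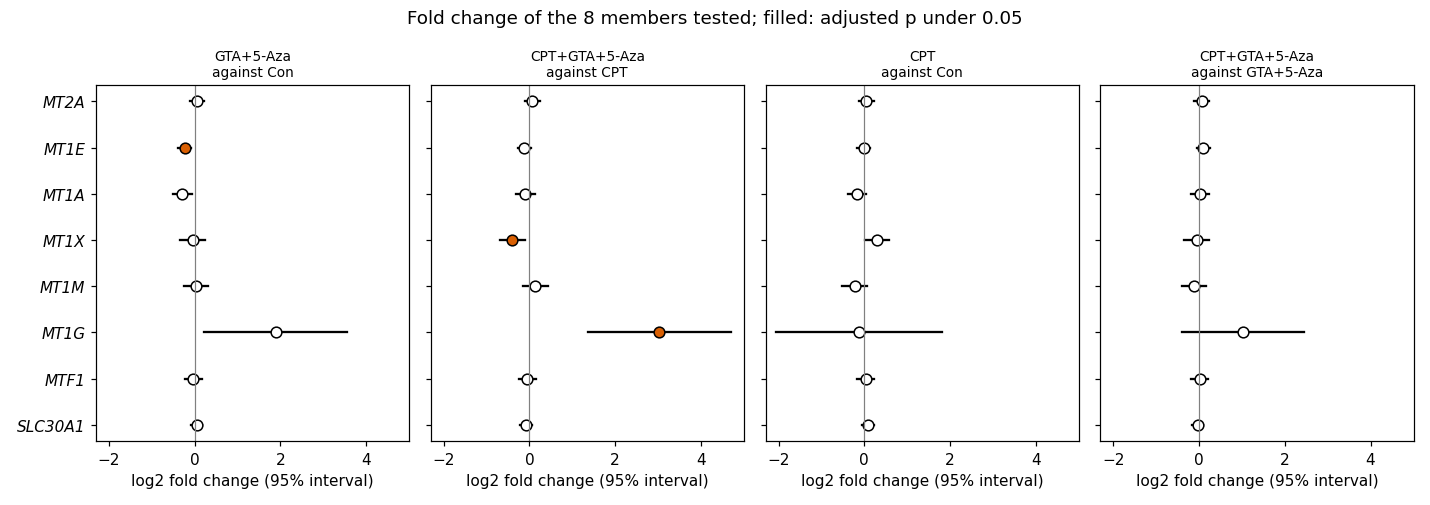
Log2 fold change of the 8 members tested in 4 comparisons, with lines for the 95% interval and filled points for an adjusted p under 0.05. Filled points are MT1E in the first panel and MT1X and MT1G in the second, and the intervals are longest for MT1G, which had 0 to 42 counts per library.

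Vitamin D alone was examined as CPT against Con. No member was called at an adjusted p under 0.05, and neither was any gene tested (0.0%), with 4.28% of genes at an unadjusted P under 0.05. DESeq2 called 4 genes, none of them a member. MT1X, at 23.1, 23.9 and 33.5 CPM in Con, had the one unadjusted P under 0.05 among the members, with a log2 fold change of 0.30 (95% interval 0.02 to 0.58) and overlapping groups. MT1M was at 14.3, 15.0 and 14.5 CPM in Con and at 12.5, 13.8 and 11.0 CPM in CPT, without overlap, as in 8.02% of genes tested. Its log2 fold change was -0.23 (interval -0.51 to 0.05). MT2A gave 0.05 (interval -0.13 to 0.22) and SLC30A1 0.09 (interval -0.04 to 0.23).

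In primed cells, CPT+GTA+5-Aza against GTA+5-Aza likewise called no member and no gene (0.0%), with 2.71% of genes and 0 of 8 members at an unadjusted P under 0.05, and DESeq2 called 0 genes. MT1G was highest in the group given all 3 agents, at 1.65 ± 0.60 CPM (SD, n = 3) against 0.811 ± 0.347 CPM in GTA+5-Aza, but the libraries of these groups overlapped. The log2 fold change of MT1G was 1.02 (95% interval -0.41 to 2.45). The other 7 members tested lay between -0.12 and 0.10.

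MT1F and MT3 did not pass the filter on low counts. MT1F had 0 counts in the 6 Con and CPT libraries, 0, 8 and 4 counts in GTA+5-Aza and 0, 2 and 6 in CPT+GTA+5-Aza. Counts were thus present in 2 of 3 libraries of each primed group and in none of the others. Summed over the group, MT1F in GTA+5-Aza was at 4.30 times a floor of 3 counts over the 3 Con libraries. In CPT+GTA+5-Aza it was at 2.87 times the same floor in CPT. The error of the counts above the floor is not included, so these ratios are not lower bounds. Both ratios rest on 1 library. Against the same floor they were 2.22 without GTA+5-Aza replicate 2 and 1.04 without CPT+GTA+5-Aza replicate 3, with 4 and 2 counts left. Without the filter, edgeR gave it adjusted p-values of 0.138 and 0.201, so neither difference passed the test. MT1H, a metallothionein gene beside MT1G that is not among the 10, had 0, 11 and 2 counts in GTA+5-Aza and 0, 1 and 0 in CPT+GTA+5-Aza, with 0 in the 6 other libraries.

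The metallothionein pool was also taken as a whole. The summed CPM of the 8 metallothioneins was 1479 ± 132 in Con, 1499 ± 130 in CPT, 1410 ± 131 in GTA+5-Aza and 1481 ± 111 in CPT+GTA+5-Aza (SD, n = 3). These means lay within 1 SD of one another. The ratio of MT1E to MT2A in CPM ran from 0.782 to 0.871 in Con and from 0.629 to 0.715 in GTA+5-Aza. It ran from 0.680 to 0.923 in CPT and from 0.627 to 0.755 in CPT+GTA+5-Aza, where the ranges overlapped.

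Over the 12 libraries, which share groups and scaling, Pearson's r of log2 CPM with MT2A was 0.38 for MT1X, 0.38 for MT1G, 0.25 for MT1E and -0.09 for MT1A, given here as a description. The 5 genes whose pattern was most like that of MT2A were ENSG00000229519 (r = 0.867), GDPD2 (0.862), TLR3 (0.845), PPIAP11 (0.823) and RPS2P46 (0.816), and 3 of these are processed pseudogenes. ENSG00000229519, GDPD2 and TLR3 averaged only 0.487, 0.402 and 0.395 CPM. The 5 are the top of 17122 genes ranked over 12 libraries, where high values arise without a shared control, and a link to MT2A was not tested. MT1X ranked 1568 and MT1E 3641 of 17122 genes by the same measure. Between libraries the coefficient of variation was 4.56% for SLC30A1, 6.18% for MTF1, 10.1% for MT2A, 18.1% for MT1X and 97.4% for MT1G.

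Of 12 further genes and pseudogenes listed, MT1L and MT2P1 passed the filter and neither was called in any comparison. MT1L, at 19.4 to 29.6 CPM, averaged 24.4 CPM, above MT1M (13.9 CPM) and below MT1A. Per kb of exon MT1L came to 131 CPM, above MT1A (93.8), but on an annotated exon length of only 186 bases. The order of MT1L and MT1A therefore depends on the length used. Every window of 100 transcript bases of MT1L occurred in ENSG00000291105 as well. Reads counted for MT1L could therefore be split, lost or come from that gene, which was not tested. MT1L gave a log2 fold change of 0.24 with priming in the absence and again in the presence of CPT, both 95% intervals including 0 (-0.03 to 0.52 and -0.04 to 0.51). MT1B, MT4, MT1DP and MT1CP had 0 counts in the 12 libraries.

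Of 8 genes tested that flank the cluster, 2 rose and 2 fell in each priming comparison, beside 9.95% and 7.53% of all genes tested without CPT and 9.57% and 7.39% with it. SLC12A3, a thiazide-sensitive sodium chloride transporter at chr16:56865207-56915850, had 0 counts in the 6 unprimed libraries. It had 15, 18 and 24 counts in GTA+5-Aza and 8, 11 and 7 in CPT+GTA+5-Aza. These were 20.4 and 9.32 times the floor of 3 counts over the unprimed group. SLC12A3 passed the filter on low counts through 4 primed libraries and 0 unprimed ones, so it was tested because it is high there, and the count of 2 includes it. GNAO1, a G protein subunit, rose by 1.11 and 1.48 on the log2 scale (SE 0.28 and 0.29). The nuclear pore gene NUP93 fell by 0.22 and 0.23, and NUDT21, a subunit of a pre-mRNA cleavage complex, fell by 0.23 in both. Leaving out 1 library of the groups compared took GNAO1, NUP93 and NUDT21 across the threshold in at least 1 case in GTA+5-Aza against Con, with a highest adjusted p of 0.0578, 0.0662 and 0.109 over the alternatives, and NUDT21 also in the comparison with CPT (0.0631).

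Zinc transport was examined through the 2 transporter families, SLC30, which moves zinc out of the cytosol, and SLC39, which moves it in. Of 6 further SLC30 genes tested, 1 rose and 1 fell in each priming comparison, beside 17.5% and 17.0% of all genes tested that were called. Their median log2 fold changes were -0.02 and -0.05, beside 0.0069 and 0.0055 over all genes tested. SLC30A3, which loads zinc into vesicles, was at 5.26, 5.43 and 5.84 CPM in Con and 12.9, 11.2 and 15.4 CPM in GTA+5-Aza. In CPT it was at 5.17, 3.94 and 3.38 CPM and in CPT+GTA+5-Aza at 11.2, 11.8 and 12.1 CPM. Each primed library lay above each unprimed one. Groups without overlap were seen in 34.1% of genes tested in GTA+5-Aza against Con and in 30.8% in CPT+GTA+5-Aza against CPT. SLC30A3 rose by 1.26 (SE 0.17, adjusted p = 1.07e-05) and 1.48 (SE 0.18, adjusted p = 1.73e-06) on the log2 scale by edgeR's quasi-likelihood test, and stayed called under the 19 alternatives in both comparisons. SLC30A6, of the secretory pathway, fell by 0.32 and 0.37, and its highest adjusted p without 1 library was 0.115 and 0.0877. SLC30A5 had the highest level per exon length of these 6 genes, 13.7 CPM per kb.

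Among 11 SLC39 importers tested, SLC39A1 and SLC39A4 rose and SLC39A11 fell in both priming comparisons. In all, 3 of 11 were called without CPT and, with SLC39A13, 4 of 11 in its presence, beside 17.5% and 17.0% of all genes tested. The median log2 fold change of the 11 was 0.10 and 0.12, beside 0.0069 and 0.0055 over all genes. SLC39A1, a plasma membrane importer, was at 77.2 ± 3.38 CPM in Con and 107 ± 3.03 CPM in GTA+5-Aza, and at 79.2 ± 1.41 CPM in CPT and 104 ± 2.68 CPM in CPT+GTA+5-Aza (SD, n = 3). The rise was 0.46 (SE 0.07) and 0.39 (SE 0.07) on the log2 scale, called under the 19 alternatives in both comparisons. SLC39A4, the intestinal zinc importer mutated in acrodermatitis enteropathica, rose by 0.44 in both (SE 0.12 and 0.12). The SLC39A4 call in GTA+5-Aza against Con was lost without GTA+5-Aza replicate 3 (adjusted p = 0.0690) and the other without CPT+GTA+5-Aza replicate 2 (adjusted p = 0.0847).

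SLC39A11 fell by 0.65 in both comparisons (SE 0.20 and 0.20), from 9.85 ± 1.57 to 6.29 ± 0.80 CPM and from 9.78 ± 1.33 to 6.24 ± 2.04 CPM, and was lost in 3 and 4 of 19 alternatives, all of which left out 1 library. SLC39A13 rose by 0.35 in CPT+GTA+5-Aza against CPT (adjusted p = 0.0327) and gave 0.32 in GTA+5-Aza against Con (adjusted p = 0.0513), and the former call was lost in 5 of 19 alternatives. SLC39A14, a broad importer of zinc and iron, had the highest level per exon length of the family at 32.4 CPM per kb and was called in neither. With CPT no gene of either family was called.

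**Figure D4:**
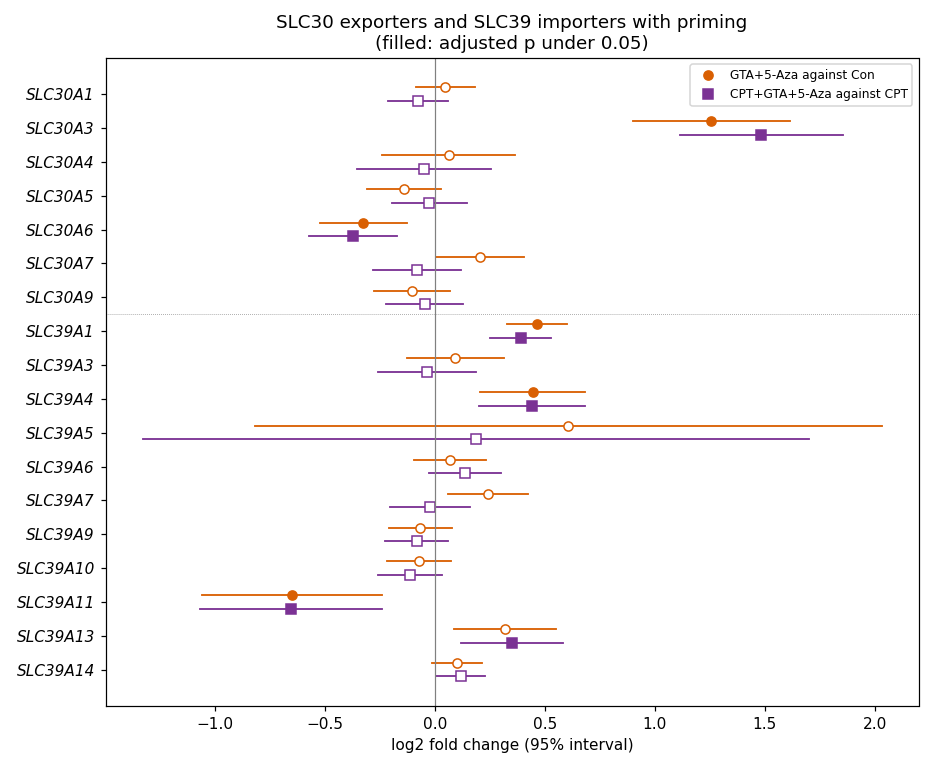
Log2 fold change with 95% interval of SLC30A1, 6 further SLC30 exporters (above the dotted line) and 11 SLC39 importers (below it) in the 2 priming comparisons, filled where the adjusted p was under 0.05. SLC30A3 lies furthest right, SLC39A1 and SLC39A4 are filled on the right in both, SLC30A6 and SLC39A11 are filled on the left in both, and SLC30A1 lies at 0.05 and -0.08.

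Genes that share inducers with the metallothioneins were read from lists of glucocorticoid, oxidative stress and copper genes. Of 8 glucocorticoid receptor and response genes tested, 3 rose with priming alone and 2 with priming in the presence of CPT, beside 9.95% and 9.57% of all genes called higher. The median log2 fold change of the 8 was 0.18 and 0.35. The receptor gene NR3C1 and FKBP5, PER1, DUSP1 and KLF9 were called in neither. NR3C1 was at 39.3, 33.0 and 41.0 CPM in Con and at 33.4, 34.6 and 29.1 CPM in GTA+5-Aza. It was at 33.3, 34.2 and 37.7 CPM in CPT and at 33.6, 27.8 and 25.4 CPM in CPT+GTA+5-Aza. SGK1, a kinase induced by glucocorticoids, rose by 0.35 and 0.44 (SE 0.06 in both), and the transcription factor CEBPD by 0.90 and 1.04 (SE 0.27 in both). TSC22D3 rose by 2.85 in GTA+5-Aza against Con on 0 to 22 counts per library, and it too passed the filter on low counts through the primed libraries, 5 of 6 against 1 of 6 unprimed. Of 16 oxidative stress and glutathione genes tested, 2 rose and 1 fell with priming alone, while 3 rose and 1 fell with priming in the presence of CPT, beside 17.5% and 17.0% of all genes called. The median of the 16 was 0.07 and 0.08. The ferritin light chain FTL rose by 0.27 and 0.34 and the quinone reductase NQO1 by 0.14 and 0.18. GCLM, of glutathione synthesis, rose by 0.23 in the latter, and the cystine importer SLC7A11 fell by 0.63 and 0.54. Of 10 copper genes, SCO1, a copper chaperone of cytochrome oxidase, fell by 0.25 and 0.33 and was the one gene called in each comparison, with medians of 0.05 and -0.04 over the 10. SOD1, the cytosolic copper-zinc superoxide dismutase, had the highest level of these genes per exon length, 167 CPM per kb, and gave -0.04 and -0.05. Leaving out 1 library or changing another setting lost the call of SCO1 in 11, NQO1 in 12 and CEBPD in 4 of 19 alternatives for priming alone, and that of TSC22D3 in 3 of 17. With CPT present, GCLM was lost in 3, CEBPD in 1 and SCO1 in 1 of 19. No gene of these lists was called for CPT, with or without priming.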

How the data were processed

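Raw gene counts per library were deposited by the authors, whose pipeline was Trim Galore for trimming, HISAT2 2.2.1 for alignment to GRCh38 and HTSeq for counting. The annotation release and strand setting of the counting are not given in the sources used here. Of 63677 identifiers, 52181 were matched to GENCODE release 44, which supplied symbols and positions.

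The counts were scaled by TMM, filtered with filterByExpr and fitted with edgeR 4.0.16 (glmQLFit, glmQLFTest; R 4.3.3) over 12 libraries. Called means a Benjamini-Hochberg adjusted p under 0.05 over 17123 genes. SE and 95% intervals follow from the F statistic. On simulated counts 72% and 74% of 2-fold changes were recovered in the 2 priming comparisons. Recovery was 59.2% in both for 1.5-fold changes and 22.0% and 14.0% for 1.2-fold changes, so most small changes were missed in that setting. The simulation changed 200 genes drawn from all expression levels, fewer than were called in the data. It therefore does not give the recovery for the abundant members, whose 95% intervals are printed above. Alternatives were DESeq2 1.42.0, its size factors, library size alone, other filters, the compared groups only, a replicate block and leaving out each library. Replicate pairs differed by 3.88 to 16.6 times the sampling variance, so each library counted once.

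The members and lists were chosen with earlier results of these data known. Named were the 10 members and, of each list, called genes (at most 5 by p) and the highest per length, and called markers of the cell line and of other cell types. Each metallothionein coding sequence compared was that of the annotated transcript nearest the family's length. For MT1E and MT1G it had 186 bases, whereas their MANE Select transcripts have 384 and 189 coding bases.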

Additional observations from a re-analysis of the deposited data

How the results depend on the processing

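In GTA+5-Aza against Con the number of members called was 1, and it was 2 by DESeq2, 2 with the compared groups alone, 0 with library size alone and 0 to 2 when 1 library was left out, with MT1A as the member gained and MT1E the member lost. In CPT+GTA+5-Aza against CPT it was 2, and it was 1 with library size alone, 1 with the compared groups alone and 0 to 2 when 1 library was left out, MT1X being lost in 11 of the 19 alternatives and MT1G in 1, without CPT+GTA+5-Aza replicate 1. The CPT comparisons and the interaction called 0 members under each setting. Replicate numbers are shared between groups, but the deviations of libraries with the same number correlated by only -0.048 to 0.117, so a replicate block is given as a check. With the replicate block the number called was 1 for each priming comparison. In CPT+GTA+5-Aza against CPT MT1X had an adjusted p of 0.0604, and no other call of a member changed. Of 750 member values under the alternatives, 697 kept direction and side, 15 lost and 5 gained the call, and 33 changed sign. One of the 33 was MTF1 with library size alone (0.01 in GTA+5-Aza against Con), and the others came from leaving out 1 library. Those log2 fold changes ranged, in GTA+5-Aza against Con, from -0.02 to 0.11 for MT1M, -0.14 to 0.15 for MT1X, -0.02 to 0.15 for MT2A and -0.10 to 0.03 for MTF1. In CPT+GTA+5-Aza against CPT they ranged from -0.17 to 0.01 for MT1A and -0.02 to 0.19 for MT2A. In CPT against Con they ranged from -0.07 to 0.05 for MT1E, -5.07 to 0.48 for MT1G, -0.07 to 0.14 for MT2A and -0.03 to 0.07 for MTF1. The -5.07 of MT1G is without CPT replicate 1, which leaves CPT at 0 counts, so it depends on the fit's handling of 0 and is no bound. In CPT+GTA+5-Aza against GTA+5-Aza they ranged from -0.05 to 0.13 for MT1A, -0.01 to 0.15 for MT1E, -0.10 to 0.02 for MT1X, -0.03 to 0.12 for MT2A and -0.05 to 0.08 for MTF1. The interaction ranged from -0.08 to 0.13 for MT2A and -0.08 to 0.05 for MTF1. None of these was called in either direction, and the cause was not tested. Over all genes, GTA+5-Aza against Con had 2993 calls. Leaving out 1 library gave between 1907 (without GTA+5-Aza replicate 3) and 3648 (without CPT replicate 2). For CPT+GTA+5-Aza against CPT the 2904 calls moved to between 1936 (without CPT+GTA+5-Aza replicate 2) and 3765 (without CPT replicate 2). CPT replicates 2 and 3 were also the replicate pair furthest apart, at 16.6 times the sampling variance. Without CPT replicate 2, CPT against Con still had 0 calls. In the priming comparisons the share of calls that were higher went from 56.9% to 68.9% and from 56.4% to 69.0% with library size alone. Without the filter CPT against Con had 10 calls and the interaction 11, none of them a member. The depth of MT1G, MT1F and MT1H, at 0 to 42 counts per library, limits what can be said of them.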

Other observations

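Of 10 heat shock genes that metals can induce, 1 rose and 3 fell in GTA+5-Aza against Con and 1 rose and 4 fell in CPT+GTA+5-Aza against CPT, with median log2 fold changes of -0.04 and -0.14 beside 0.0069 and 0.0055 over all genes tested, of which 17.5% and 17.0% were called. The cytosolic chaperone HSPA8 fell by 0.34 and 0.33, the mitochondrial chaperonin HSPD1 by 0.39 and 0.38, and HSPH1 by 0.44 and 0.37 (SE 0.05, 0.05 and 0.07 in each comparison). HSPA8 went from 2730 ± 80.2 CPM in Con to 2156 ± 124 CPM in GTA+5-Aza (SD, n = 3). The small heat shock protein HSPB1 rose by 0.33 and 0.29, from 485 ± 22.7 to 609 ± 46.3 CPM and from 470 ± 39.8 to 576 ± 21.4 CPM. These 4 genes were called under the 19 alternatives in both comparisons. BAG3, a co-chaperone, fell by 0.21 in CPT+GTA+5-Aza against CPT (adjusted p = 0.0442 by edgeR's quasi-likelihood test), a call lost in 10 of 19 alternatives. No gene of the list was called with CPT.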
